A study of Mus musculus with 13 samples.

Results

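The 10 genes described here encode heat shock proteins and chaperones of the sarcomere, and they are *Hspa1a*, *Hspa1b*, *Hspa8*, *Dnajb1*, *Hsph1*, *Hsp90aa1*, *Hspb1*, *Hspb7*, *Cryab* and *Bag3*. They were chosen by symbol from the 17924 genes in the deposited tables, and by their normalized counts in earlier results of these data, in which 1 library, EDL replicate 1, was high for some of them. RNA was sequenced from whole muscles of *mdm* mice, in 13 libraries: 5 from the extensor digitorum longus (EDL), a fast muscle of the lower leg, 5 from the psoas, a fast muscle of the hip, and 3 from the soleus, a slow muscle of the calf. All 13 libraries carry the genotype label *mdm*, a deletion in the titin gene (*Ttn*) that causes muscular dystrophy with myositis, and no wild-type library is analysed here, so every comparison is between muscles of this 1 genotype. The colony was B6C3Fe a/a-Ttn mdm/J. The mice were 29 to 42 days old, had already well developed disease, and had been killed with isoflurane for other experiments, and the muscles were kept in RNAlater. By the labels, 4 libraries are from males, 2 from females and 7 have no sex given.

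Heat shock proteins bind unfolded or partly folded proteins. HSP70 proteins work in a cycle of ATP use that is started by J-domain proteins of the HSP40 family and reset by nucleotide exchange factors such as HSP110 and the BAG proteins, and clients such as kinases and myosin go on to HSP90. When unfolded proteins accumulate, after heat, ischaemia or mechanical damage, heat shock factor 1 (HSF1) is released from its chaperones and binds heat shock elements in front of the inducible genes, whose transcription rises within minutes. Small heat shock proteins use no ATP and hold unfolded clients, in muscle mainly at the Z-disc and on the elastic part of titin, and BAG3 joins them to HSP70 in chaperone-assisted selective autophagy, which removes damaged filamin C.

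The DNA in front of the genes is shown first, for the pair of inducible HSP70 genes, which the results turn on, and for the members whose windows hold the binding motif, with *Dnajb1* as one that does not. Each run is the 250 bases before the RefSeq start of the gene on GRCm38.p6, read 5′ to 3′ on the strand of the gene, and capitals mark matches to a heat shock element of 2 units, GAA then TTC or TTC then GAA, with any 2 bases (NN) between the units. Both motifs read the same on either strand. The windows lie at chr17:34972157-34972406 on the reverse strand for *Hspa1a*, chr17:34959239-34959488 on the reverse strand for *Hspa1b*, chr5:149636337-149636586 on the reverse strand for *Hsph1*, chr5:135887669-135887918 on the forward strand for *Hspb1* and chr8:83607925-83608174 on the forward strand for *Dnajb1*.
Hspa1a: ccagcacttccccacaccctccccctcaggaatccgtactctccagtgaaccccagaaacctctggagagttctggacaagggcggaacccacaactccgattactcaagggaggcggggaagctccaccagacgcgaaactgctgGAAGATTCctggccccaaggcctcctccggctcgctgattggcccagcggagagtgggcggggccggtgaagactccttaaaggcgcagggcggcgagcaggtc
Hspa1b: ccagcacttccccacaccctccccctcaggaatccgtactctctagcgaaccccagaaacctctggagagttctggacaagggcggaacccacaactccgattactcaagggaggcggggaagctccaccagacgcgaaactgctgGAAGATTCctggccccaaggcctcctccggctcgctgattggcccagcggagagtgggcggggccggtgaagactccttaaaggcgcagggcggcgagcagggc
Hsph1: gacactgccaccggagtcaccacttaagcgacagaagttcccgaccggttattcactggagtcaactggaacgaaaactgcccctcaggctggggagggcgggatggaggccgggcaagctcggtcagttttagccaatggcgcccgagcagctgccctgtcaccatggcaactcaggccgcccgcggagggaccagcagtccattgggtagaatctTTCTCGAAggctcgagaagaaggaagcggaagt
Hspb1: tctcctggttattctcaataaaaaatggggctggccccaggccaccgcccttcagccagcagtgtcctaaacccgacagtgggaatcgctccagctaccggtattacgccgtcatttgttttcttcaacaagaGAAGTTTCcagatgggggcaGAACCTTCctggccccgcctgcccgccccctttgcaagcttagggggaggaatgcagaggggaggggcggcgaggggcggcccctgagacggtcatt
Dnajb1: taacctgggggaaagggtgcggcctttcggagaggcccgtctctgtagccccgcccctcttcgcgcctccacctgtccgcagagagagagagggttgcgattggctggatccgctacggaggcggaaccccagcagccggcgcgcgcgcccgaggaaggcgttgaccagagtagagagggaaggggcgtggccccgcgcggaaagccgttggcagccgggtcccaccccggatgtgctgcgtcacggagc
The windows of *Hspa1a* and *Hspa1b* differed at 3 of 250 positions when laid side by side without gaps, and in both the match ended 96 bases before the start. In *Hsph1* the match ended 25 bases before the start, and in *Hspb1* the 2 matches ended 109 and 89 bases before it. A match of 2 units was found in 5 of the 9 member windows (7 genes, of which *Dnajb1* and *Hsph1* have a pair of starts each) and in 12.8% of all 32851 windows of this length. The *Hsph1* windows overlap and hold the same match, and those of *Hspa1a* and *Hspa1b* are near-identical, so the 5 windows are not independent. The longer elements of 3 units (GAA, TTC and GAA, or the reverse complement TTC, GAA and TTC, spaced in the same way), each of which contains both shorter motifs, were found in 0 member windows and in 0.466% of all windows. A match of letters is not a binding site, and a window without one says nothing of HSF1. RefSeq windows of *Hspa8*, *Hsp90aa1* and *Cryab* were not used here.

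*Hspa1a* and *Hspa1b* lie next to each other on chromosome 17 (34969190 to 34972156 and 34956436 to 34959238, both on the reverse strand), each as 1 exon. Of the 2893 different stretches of 75 bases, the read length, in *Hspa1a* transcripts of GENCODE release M21, 52.7% occurred unchanged in *Hspa1b*, and 55.8% of those of *Hspa1b* occurred in *Hspa1a*. Reads from these stretches can be given to either gene, so the counts of the 2 genes are not independent. Processed copies share sequence with other members in the same way: 36.2% of the stretches of *Hsp90aa1* occurred in *Gm12346* and 22.1% in *Gm5844*, 30.2% of those of *Hspa8* in *Gm15459*, and 46.4% of those of *Hspb1* in *Hsp25-ps1*. *Dnajb1*, *Hsph1*, *Hspb7*, *Cryab* and *Bag3* shared 0 stretches with another gene. *Cryab* (chromosome 9, 50751325 to 50756636, forward strand) overlaps *Hspb2* on the opposite strand, and *Hspa1a* overlaps *Gm20481* on the opposite strand. The strand setting of the counting is not given in the sources used here, so reads from such partners may not have been told apart.

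Levels are given as normalized counts, which are the read counts of a gene divided by a size factor for the depth of the library. Total counts ran from 9114176 to 48835209 per library, and EDL replicate 1 was the deepest. EDL replicate 1 also stood apart in other ways: it was the only library with the label code T1, 2.03% of its counts fell on small nuclear RNA genes against 0.105% to 0.451% in the other 12, and 24.1% fell on all small non-coding RNA genes against 7.14% to 20.8%. For this library the paper also lists a larger share of reads aligned at multiple places than for the other *mdm* libraries with a stated percentage. Among the 5 EDL libraries it had the highest summed level of 6 endothelial markers (4673 against 1870 to 2883), of 4 smooth muscle markers (2926 against 1280 to 1985), of 5 red blood cell markers (577 against 97.6 to 361) and of 3 mesothelial markers (98.8 against 28.4 to 55.5), and the lowest of 6 adipocyte markers (9146 against 10366 to 27996). Its summed level of 8 markers of skeletal muscle fibres, 1806937, was within that of the other EDL libraries (1524696 to 2801546). The part of depth, small RNAs, multiple alignment, these cell types and the label code in the values below was not tested. The 9 slow fibre markers summed to 361929 to 427594 in soleus against 16332 to 73374 in the other muscles, with no overlap for 9 of 9 genes, as the muscle labels say. These are whole muscles, so fewer cells of a type and less RNA per cell cannot be told apart.

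All 10 genes were abundant enough to be tested in every comparison. Across the 12 libraries other than EDL replicate 1, the mean normalized count per kilobase of exon was highest for *Hspb1* (4255) and *Hspa8* (3860), whose library ranges overlapped. *Hspb7* (1090) and *Hsp90aa1* (1005) followed at nearly the same level per kilobase. *Cryab* (400.3), *Bag3* (251.6), *Hspa1b* (204.2), *Hspa1a* (192.2), *Hsph1* (104.6) and *Dnajb1* (63.1) were lower. In EDL replicate 1 the order per kilobase was different, with *Hspa1b* (11040) first, then *Hspa1a* (8659), *Hspb1* (7940) and *Hspa8* (7692). Together the 10 genes took 0.578% of the counts of EDL replicate 1 and 0.117% to 0.280% in the other libraries.

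**Figure D1:**
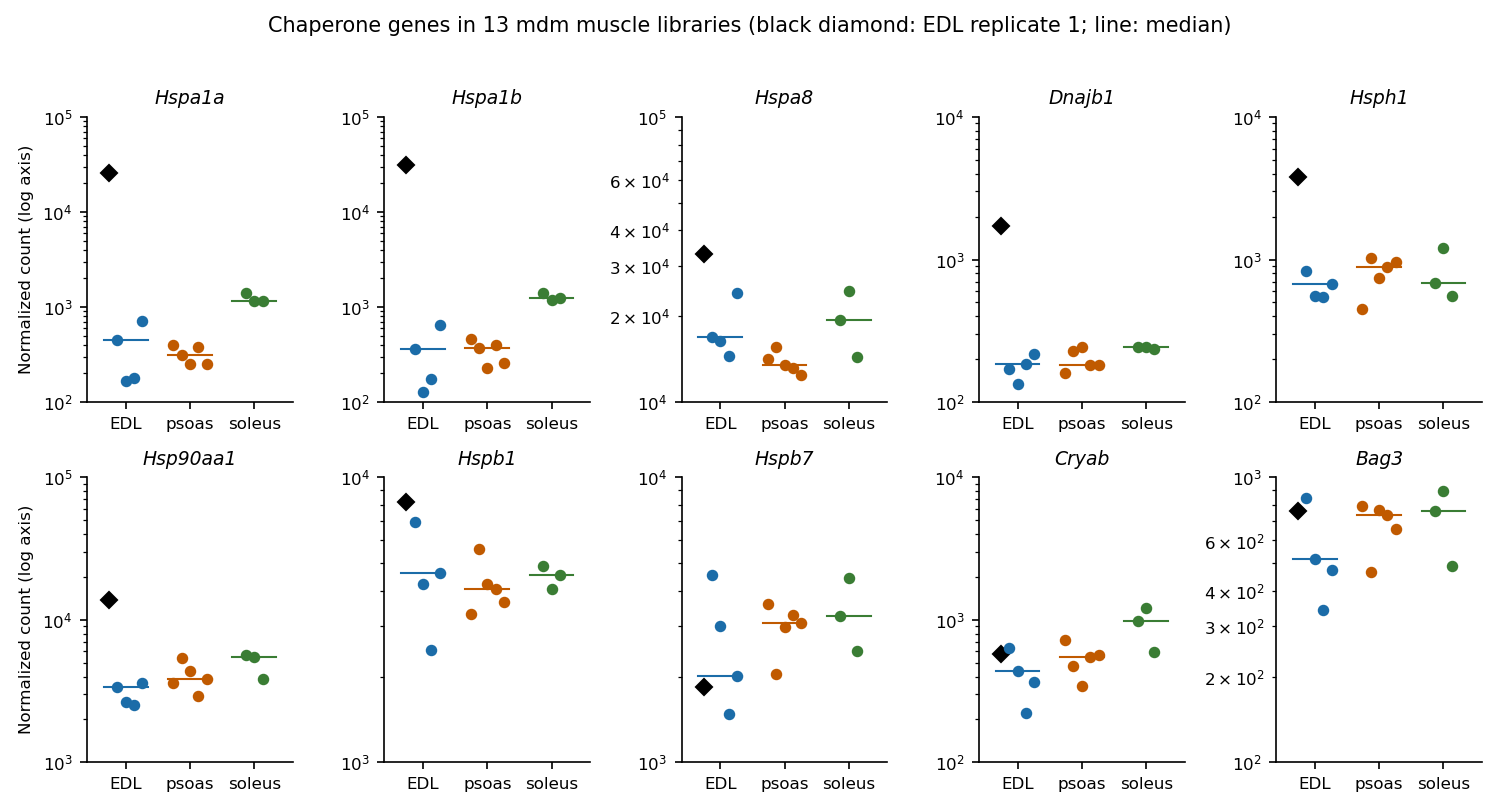
Normalized count (log axis) of each of the 10 genes in the 13 libraries, by muscle, with a line at the median of the muscle and a black diamond for EDL replicate 1. The diamond lies far above the other points for *Hspa1a*, *Hspa1b*, *Dnajb1*, *Hsph1* and *Hsp90aa1*, and among them for *Hspb7*, *Cryab* and *Bag3*.

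EDL replicate 1 was named when the genes were chosen, so its height is described here without a test. It was the highest of the 13 libraries for 7 of the 10 genes, while it was highest for 9.16% of all 17069 genes tested. For 5 of the 10 genes it exceeded every other library at least 2-fold, against 1.19% of all genes tested, 0.294% of the 13924 protein-coding genes and 30% of 243 small non-coding RNA genes. Those 5 genes were *Hspa1b* (21.9-fold above the highest other library), *Hspa1a* (18.2-fold), *Dnajb1* (6.97-fold), *Hsph1* (3.15-fold) and *Hsp90aa1* (2.41-fold). Ranked by this ratio, they were number 1, 2, 3, 8 and 24 among the protein-coding genes. Among all genes tested they were number 2, 5, 17, 72 and 132. *Hspa8* (1.35-fold) and *Hspb1* (1.2-fold) were highest in EDL replicate 1 but within 2-fold of the next library. *Bag3* (0.850), *Cryab* (0.479) and *Hspb7* (0.405) were below the highest other library. The 5 high genes thus encode HSP70, HSP40, HSP110 and HSP90 proteins, but *Hspa8*, another HSP70, was not among them. The small heat shock proteins *Hspb1*, *Hspb7* and *Cryab* and the co-chaperone *Bag3* were not among them either, although *Hspb1* was highest in that library.

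**Figure D2:**
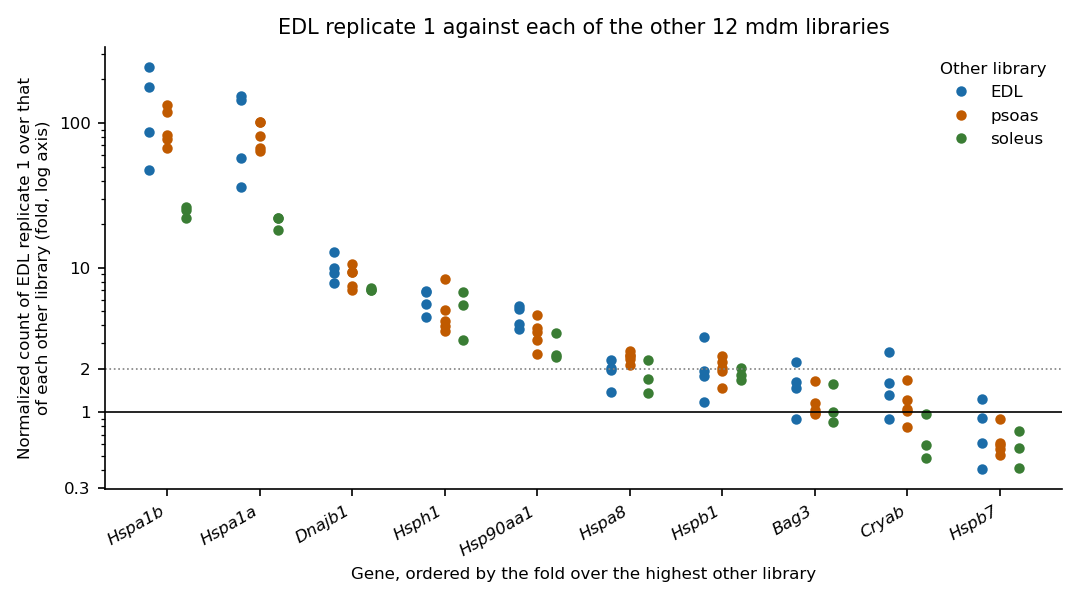
Normalized count of EDL replicate 1 divided by that of each of the other 12 libraries (log axis, 1 point a library, coloured by muscle), for the 10 genes in order of the ratio to the highest other library. The solid line is at 1 and the dotted line at 2, and 5 genes lie wholly above 2, from *Hspa1b* (at least 21.9-fold) to *Hsp90aa1* (at least 2.41-fold), while *Hspb7*, *Cryab* and *Bag3* lie on both sides of 1.

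Few other chaperones, listed by function, were high in that library. In EDL replicate 1, 1 of 22 other genes of the HSP70 cycle exceeded every other library at least 2-fold, which was *Dnaja1*, another J-domain protein, with 3911 against 918 to 1405 in the rest (2.78-fold). For the 5 heat shock factors and regulators, 16 other genes of the HSP90 cycle, 5 other small heat shock proteins, 8 partners and clients of BAG3, 14 subunits of TRiC and prefoldin, 15 chaperones of the endoplasmic reticulum and 12 of mitochondria, 0 genes did. Of 14 immediate early genes, which respond to many kinds of acute stimulus, 1 did. The summed level of these lists in EDL replicate 1 lay within the range of the other EDL libraries, except for TRiC and prefoldin, where it was lower (25949 against 27711 to 37397, over 15 genes of which 1 was too low to be tested).

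The inducible HSP70 genes were the most variable members. *Hspa1a* had normalized counts of 25692, 445, 167, 179 and 710 in EDL replicates 1 to 5, of 400, 316, 254, 383 and 251 in psoas replicates 1 to 5, and of 1412, 1161 and 1167 in soleus replicates 1 to 3. *Hspa1b*, its near-identical copy, had 30946, 358, 127, 173 and 649 in EDL, 460, 375, 231, 401 and 260 in psoas, and 1414, 1173 and 1245 in soleus. EDL replicate 1 was far above all other libraries, the 3 soleus libraries were above every psoas library and every other EDL library, and the other EDL libraries overlapped psoas and spread 4.25-fold for *Hspa1a* and 5.10-fold for *Hspa1b*. The ratio of *Hspa1b* to *Hspa1a* ran from 0.762 to 1.20 over the 13 libraries, with 1.20 in EDL replicate 1.

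Differences between muscles were tested with edgeR's quasi-likelihood test on the counts of all 17069 genes, with p-values adjusted after Benjamini and Hochberg over all of them, and a gene was called where its log2 fold change lay beyond 1 in either direction with an adjusted p under 0.01. Since the members were chosen with results known, their p-values describe them and are no independent evidence, and the p-values measure the spread between these libraries. Against psoas, the mean level in soleus was 3.90-fold higher for *Hspa1a* (log2 fold change 1.97, SE 1.22) and 3.71-fold higher for *Hspa1b* (1.89, SE 1.29), with no overlap of libraries but without a call (edgeR, adjusted p = 0.520 and 0.559). The fit uses 1 estimate of the spread for the 3 muscles, and EDL replicate 1 enters it. Without EDL replicate 1 the fold changes were the same and the SE were 0.385 and 0.407, still without a call (edgeR, adjusted p = 0.0423 and 0.0617). With only the soleus and psoas libraries in the fit, *Hspa1a* was called (edgeR, log2 fold change 1.96, adjusted p = 0.00520) and *Hspa1b* was not (1.89, adjusted p = 0.0129).

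Comparisons of this pair with EDL depended on EDL replicate 1. Without it, soleus against EDL changed sign for both genes and psoas against EDL for *Hspa1b*. Over all libraries, *Hspa1a* was 4.30-fold lower in soleus than in EDL (log2 fold change -2.11, SE 1.35, edgeR adjusted p = 0.519) and *Hspa1b* was 4.98-fold lower (-2.32, SE 1.46, adjusted p = 0.507), neither called. Without EDL replicate 1, *Hspa1a* was 3.31-fold higher in soleus (1.73, SE 0.412, edgeR adjusted p = 0.0399) and *Hspa1b* 3.90-fold higher (1.96, SE 0.438, adjusted p = 0.0294), again not called, with no overlap of libraries. With the counts of both genes added up and EDL replicate 1 left out, an alternative chosen after seeing the data, the log2 fold change was 1.85 (edgeR, adjusted p = 0.0362). Psoas against EDL gave -4.07 for *Hspa1a* (SE 1.21, edgeR adjusted p = 0.0323) and -4.21 for *Hspa1b* (SE 1.30, adjusted p = 0.0372) over all libraries, and -0.24 (SE 0.362, adjusted p = 0.672) and 0.07 (SE 0.385, adjusted p = 0.914) without EDL replicate 1. The last of these leaves differences up to 0.84 higher and 0.70 lower on the log2 scale within 2 SE.

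Within libraries of 1 label code the soleus difference had the same direction. CPM is the count scaled to a common library size, after the library totals are adjusted by the TMM factors of edgeR. Between libraries with the code T4, mean log2 CPM of *Hspa1a* in soleus was 1.5 above EDL and 2.03 above psoas. Between those with T6 it was 1.72 and 1.91 above. These differences rest on 2 soleus, 1 EDL and 1 psoas library with T4, and on 1 soleus, 2 EDL and 2 psoas libraries with T6. With T5 there is no soleus library, and T1 and T3 hold 1 library each. With T4 the soleus libraries are from mice of 33 and 36 days and the others from mice of 38 days, while all with T6 are of 38 days. No soleus library is labelled female, while EDL and psoas hold 1 female library each. The summed level of 6 adipocyte markers was also higher in soleus (53980 to 83251) than in EDL (9146 to 27996) and psoas (14320 to 37122), as were the slow fibre markers given above. The part of these markers, of age and of sex in the *Hspa1a* and *Hspa1b* levels was not tested.

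*Hspa8* encodes HSC70, the HSP70 that cells make at all times. Its normalized counts were 33083, 16849, 16357, 14468 and 24148 in EDL, 14209, 15588, 13541, 13193 and 12470 in psoas, and 19469, 24531 and 14422 in soleus. The 5 psoas libraries were the most even, and the muscles overlapped. Psoas was 1.52-fold lower than EDL (log2 fold change -0.60, SE 0.249, edgeR adjusted p = 0.106) and -0.39 without EDL replicate 1 (SE 0.224, adjusted p = 0.236). Soleus was 0.51 above psoas on the log2 scale (SE 0.283, edgeR adjusted p = 0.477).

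*Dnajb1* encodes the J-domain protein that hands clients to HSP70, and *Hsph1* encodes HSP110, which exchanges its nucleotide. *Dnajb1* had 1704, 172, 133, 186 and 216 in EDL, 161, 229, 245, 182 and 182 in psoas, and 242, 244 and 234 in soleus. Its 3 soleus libraries lay within 1.04-fold of each other, and above all EDL libraries other than replicate 1. *Hsph1* had 3774, 828, 557, 550 and 678 in EDL, 452, 1028, 745, 882 and 959 in psoas, and 683, 1198 and 555 in soleus, with full overlap of the muscles apart from EDL replicate 1. For *Dnajb1*, psoas against EDL gave -1.28 (SE 0.589, edgeR adjusted p = 0.145) and without EDL replicate 1 0.17 (SE 0.187, adjusted p = 0.551), and soleus against EDL gave -1.0 (SE 0.695, adjusted p = 0.558) and 0.44 (SE 0.211, adjusted p = 0.338). For *Hsph1* the same 4 values were -0.65, 0.31, -0.64 and 0.32, none called. Soleus against psoas differed by 0.27 for *Dnajb1* (SE 0.670) and 0.01 for *Hsph1* (SE 0.569, an interval of 2 SE from -1.13 to 1.15).

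*Hsp90aa1* encodes the inducible HSP90, which is needed to fold myosin. Its normalized counts were 13714, 3377, 2646, 2534 and 3623 in EDL, 3609, 5413, 4352, 2910 and 3844 in psoas, and 5699, 5520 and 3863 in soleus. Apart from EDL replicate 1, soleus libraries were above all EDL libraries and overlapped psoas. Soleus against EDL was -0.03 over all libraries (SE 0.478, edgeR adjusted p = 0.988) and 0.73 without EDL replicate 1 (SE 0.250, adjusted p = 0.157), or 1.65-fold. Psoas against EDL was -0.36 (SE 0.414, edgeR adjusted p = 0.585) and 0.40 without it (SE 0.223, adjusted p = 0.219). *Hsp90aa1* thus turned from lower to higher in both muscles when that library was left out, without a call either way.

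The small heat shock proteins showed no such library. *Hspb1*, HSP25 of the mouse, had 8186, 6950, 4229, 2473 and 4623 in EDL, 3325, 5586, 4231, 4061 and 3653 in psoas, and 4900, 4057 and 4555 in soleus. *Hspb7*, a small heat shock protein of heart and skeletal muscle that binds filamin C, had 1835, 4530, 3004, 1481 and 2015 in EDL, 3601, 2042, 2983, 3293 and 3093 in psoas, and 3260, 4438 and 2464 in soleus. All muscles overlapped for both genes, and EDL was the most variable, spread 3.31-fold for *Hspb1* and 3.06-fold for *Hspb7*. The log2 fold changes of *Hspb1* were -0.35 for psoas against EDL, -0.23 for soleus against EDL and 0.12 for soleus against psoas (SE 0.278 to 0.323, edgeR adjusted p from 0.412 to 0.898). For *Hspb7* they were 0.21, 0.40 and 0.18 (SE 0.298 to 0.342, edgeR adjusted p from 0.654 to 0.842).

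*Cryab* encodes alpha-B crystallin, which binds desmin and titin at the I-band. It had 578, 639, 438, 221 and 365 in EDL, 726, 472, 345, 548 and 571 in psoas, and 975, 1206 and 598 in soleus. The highest values were those of soleus replicates 1 and 2, and soleus replicate 3 lay within the range of the other muscles. Soleus was 2.07-fold higher than EDL (log2 fold change 1.05, SE 0.326, edgeR adjusted p = 0.104) and 1.75-fold higher than psoas (0.81, SE 0.326, adjusted p = 0.324), neither called. Without EDL replicate 1 the first was 1.15 (SE 0.347, edgeR adjusted p = 0.0989), so this difference did not rest on that library. Within 1 label code, soleus minus EDL in log2 CPM was 0.74 for T4 and 1.09 for T6, and soleus minus psoas was 1.21 and 0.10. Each of these values rests on 1 or 2 libraries of a muscle. Psoas against EDL gave 0.24 (SE 0.288, edgeR adjusted p = 0.600).

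*Bag3* encodes the co-chaperone that joins HSP70 to the small heat shock proteins. It had 763, 845, 516, 341 and 471 in EDL, 790, 465, 770, 736 and 660 in psoas, and 760, 898 and 487 in soleus. The muscles overlapped, and its lowest value was in EDL replicate 4, as for *Hspb1*, *Hspb7* and *Cryab*. The log2 fold changes were 0.21 for psoas against EDL (SE 0.259), 0.29 for soleus against EDL (SE 0.297) and 0.07 for soleus against psoas (SE 0.298), with edgeR adjusted p of 0.604, 0.724 and 0.935. An interval of 2 SE for the last runs from -0.52 to 0.67, so differences of that size are not excluded by these libraries.

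**Figure D3:**
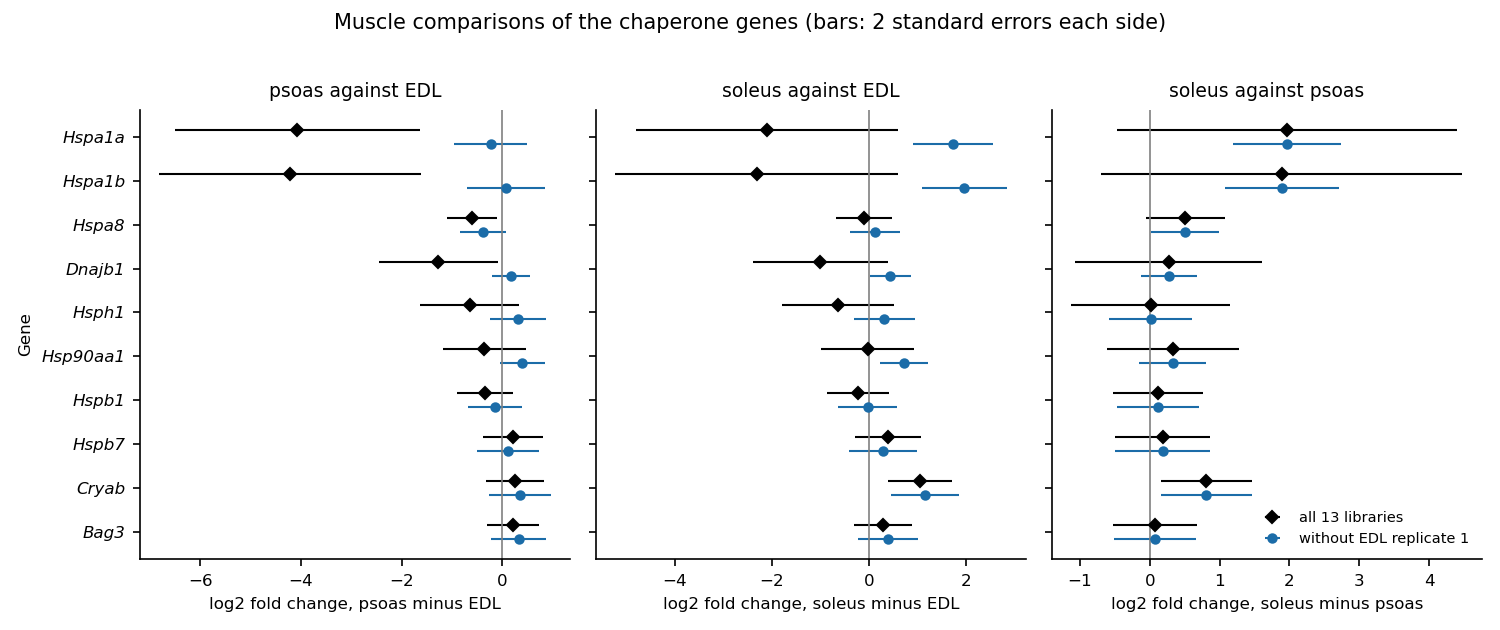
Log2 fold changes of the 10 genes in the 3 muscle comparisons (horizontal axes, first muscle minus second), with bars of 2 standard errors on each side, over all 13 libraries (black diamonds) and without EDL replicate 1 (blue circles). For *Hspa1a* and *Hspa1b* the value of soleus against EDL moves from -2.11 and -2.32 to 1.73 and 1.96, while that of soleus against psoas stays at 1.97 and 1.89 with shorter bars.

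Counted over the 10 genes, 0 were called in psoas against EDL, where 4.93% of all genes tested were called, 0 in soleus against EDL (0.978% of all genes) and 0 in soleus against psoas (0.0762%). At an unadjusted p under 0.05 (edgeR), 4 of the 10 differed in psoas against EDL, 1 in soleus against EDL and 1 in soleus against psoas, against 33.3%, 15.1% and 12.7% of all genes. DESeq2 and limma called 0 of the 10 in each comparison, and DESeq2 gave no adjusted p for 5 of them (*Hspa1a*, *Hspa1b*, *Dnajb1*, *Hsph1* and *Hsp90aa1*). Without EDL replicate 1, edgeR called 0 of 10 in psoas against EDL (4.26% of all genes), in soleus against EDL (0.568%) and in soleus against psoas (0.0469%), and 0, 4 and 3 had an unadjusted p under 0.05, against 35.2%, 15.7% and 13.4% of all genes. The median log2 fold change of the 10 genes was -0.48 for psoas against EDL beside 0.02 for all genes, -0.16 for soleus against EDL beside -0.03, and 0.30 for soleus against psoas beside -0.03. Without EDL replicate 1 the first became 0.14 (all genes 0.06) and the second 0.42 (all genes 0.003), so the sign of both medians rested on that library. Libraries did not overlap, with soleus above psoas, for 2 of the 10 genes (*Hspa1a* and *Hspa1b*), against 4.97% of all genes. With soleus above EDL they did not overlap for 0 of 10 over all libraries (5.33% of all genes) and for 4 of 10 without EDL replicate 1 (*Hspa1a*, *Hspa1b*, *Dnajb1* and *Hsp90aa1*), against 7.22% of all genes. EDL replicate 1 was named as high in some members when they were chosen, and these 4 are among its high genes. Leaving it out therefore favours this count by construction, so the count is no evidence beside the share of all genes. *Hspa1a* and *Hspa1b* also share reads.

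**Figure D4:**
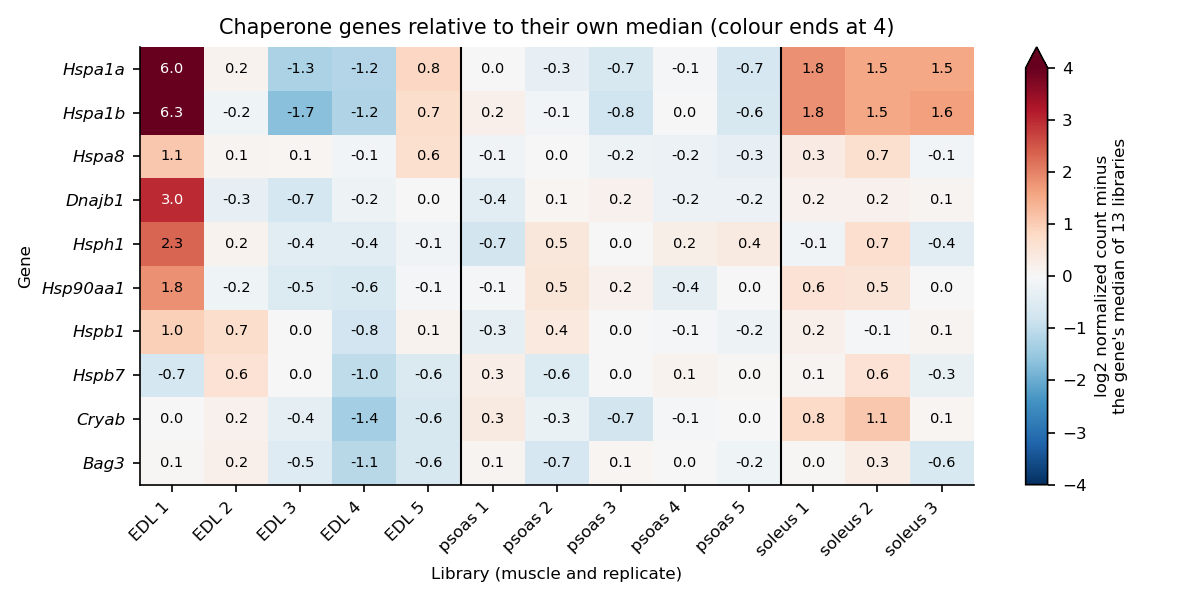
Log2 normalized count of each gene in each library minus the median of that gene over the 13 libraries, with the number in each cell and the colour scale ending at 4. EDL replicate 1 is dark for the upper genes, at 6.0 for *Hspa1a* and 6.3 for *Hspa1b*, the soleus column group is raised for both by 1.5 to 1.8, and EDL replicate 4 is low in the small heat shock proteins and *Bag3*, from -0.8 to -1.4.

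By Pearson's r, the 8 genes whose log2 CPM followed *Hspa1a* most closely over the 13 libraries were *Hspa1b* (0.996), *Gm5844* (0.915), *Dnajb1* (0.909), *Dnaja1* (0.907), *Gm12346* (0.900), *Hsp90aa1* (0.876), *Gm24019*, a small nuclear RNA gene (0.863), and *Gm38224* (0.862). *Gm5844* and *Gm12346* are the processed pseudogenes that share sequence with *Hsp90aa1*. All points share EDL replicate 1, and over the other 12 libraries r was 0.987 for *Hspa1b* and between 0.454 and 0.700 for the rest. *Cryab* was followed most closely by *Lurap1* (0.862), *Gja5* (0.857), *Wdr48* (0.853), *Rassf9* (0.852), *Amigo2* (0.845), *Fhl5* (0.844), *Barx2* (0.829) and *Esrrg* (0.827), with r of 0.843 to 0.921 over the 12 libraries. No member gene was among the 8 nearest of *Cryab*. Of the members, *Bag3* (0.741) and *Hspb7* (0.718) had the highest r with *Cryab* over all libraries, and these were 0.747 and 0.787 without EDL replicate 1. The r of *Cryab* with *Hspa1a* was 0.404 over all libraries and 0.702 without EDL replicate 1. These are descriptions of 13 libraries that also share muscle and depth.

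Other genes of the same pathways, listed by function with results known, held 3 that were called, all in psoas against EDL. *Hspa1l*, an HSP70 made mainly in testis, was 3.57-fold lower in psoas (log2 fold change -1.84, SE 0.265, edgeR adjusted p = 0.00122), with 417, 396, 354, 175 and 257 in EDL, 60.1, 69.4, 129, 104 and 87.9 in psoas and 201, 194 and 210 in soleus. EDL and psoas did not overlap, and soleus lay between their means. *Hspa1l* adjoins *Hspa1a*, and 5.88% of the stretches of 75 bases of *Hspa1a* occurred in it. *Hspb2*, a muscle small heat shock protein that lies head to head with *Cryab*, was 2.91-fold lower in psoas (-1.54, SE 0.247, edgeR adjusted p = 0.00202), with 310 to 932 in EDL, 151 to 206 in psoas and 351 to 478 in soleus, while *Cryab* was not called. *Hspa12a*, a distant HSP70 relative, was 2.44-fold higher in psoas (1.29, SE 0.259, edgeR adjusted p = 0.00585), with 89.6 to 164 in EDL and 176 to 419 in psoas. Markers of fibres and of other cell types moved in the same comparison. The 10 fast fibre markers summed to 290722 to 702556 in psoas against 1068299 to 2332453 in EDL, with 4 called lower, and 3 of 8 markers of skeletal muscle fibres and 2 of 4 tendon markers were also called lower. Higher in psoas were 3 of 3 mesothelial markers (182 to 850 against 28.4 to 98.8), 2 of 5 Schwann cell markers (2232 to 18661 against 510 to 1313) and 1 each of 6 endothelial, 4 smooth muscle and 4 satellite cell markers (edgeR). Their part in these 3 genes and in the medians of the lists was not tested. Without EDL replicate 1 *Hspa1l*, *Hspb2* and *Hspa12a* were still called (edgeR, adjusted p = 0.00318, 0.00389 and 0.00628).

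Of the 22 other genes of the HSP70 cycle, 2 were called in psoas against EDL, as given above, and 0 in either comparison of soleus, and the largest values there were *Hspa4l* (1.33, edgeR adjusted p = 0.0121) and *Bag4* (0.91, adjusted p = 0.0362) for soleus against EDL and *Hspa1l* (1.17, adjusted p = 0.101) and *Dnaja4* (1.05, adjusted p = 0.0936) for soleus against psoas. Of the 5 heat shock factors and regulators, 0 were called in any comparison. *Hsf1*, the main factor of the response, was 0.86 higher in psoas than in EDL (SE 0.220, edgeR adjusted p = 0.0164), 0.29 higher in soleus than in EDL and -0.58 in soleus against psoas. *Hsf4* gave 0.58 (SE 0.454) in psoas against EDL and 0.50 (SE 0.527) in soleus against EDL. Its normalized counts were only 1.99 to 16.6, so these values are imprecise. *Hsbp1*, which binds HSF1, was 0.38 higher in soleus than in psoas. Of the 16 other genes of the HSP90 cycle, 0 were called. Their largest values were those of *Smyd1*, a methyltransferase that works with HSP90 on myosin (-1.01 in psoas against EDL, edgeR adjusted p = 0.0193, and 0.85 in soleus against psoas), *Fkbp4* (-0.64 in psoas against EDL), the myosin chaperone *Unc45b* (-0.61) and *Fkbp5* (0.50, SE 0.893) in soleus against EDL, and *Cdc37l1* (0.74 in soleus against psoas). In every muscle *Fkbp5* was lower in the libraries with the label code T6 (193 to 553) than in the rest (787 to 3222).

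Of the 5 other small heat shock proteins, 1 was called (*Hspb2*), and in the comparisons of soleus the largest values were *Hspb3* (-0.43) and *Hspb2* (-0.39) against EDL, and *Hspb2* (1.15) and *Hspb6* (0.76) against psoas. Of the 8 partners and clients of BAG3, 0 were called. *Synpo2l* and *Synpo2*, relatives of which the second ties BAG3 to the autophagosome, were 1.07 (edgeR adjusted p = 0.0138) and 0.74 higher in psoas than in EDL and 0.78 and 0.54 higher in soleus than in EDL. *Flnc*, filamin C, was -0.40 and *Sqstm1*, an autophagy receptor, 0.38 in soleus against psoas. Among chaperones outside these pathways 0 of 14 (TRiC and prefoldin), 0 of 15 (endoplasmic reticulum) and 0 of 12 (mitochondria) were called by edgeR in any comparison. The largest values in psoas against EDL were *Pfdn1* (-0.78) and *Vbp1* (-0.57) of prefoldin, *Calr* (0.93) and *Pdia3* (0.75) of the endoplasmic reticulum, and *Grpel2* (-0.66) and *Dnaja3* (-0.56) of mitochondria. In soleus against EDL they were *Pfdn2* (-0.60), *Pfdn1* (-0.59), *Calr* (0.53), *Pdia3* (0.45), *Grpel2* (-0.25) and *Dnaja3* (-0.24), and in soleus against psoas *Pfdn4* (0.47), *Cct5* (0.36), *Hyou1* (-0.47), *Calr* (-0.40), *Grpel1* (0.48) and *Lonp1* (0.45). Of the 14 immediate early genes 0 were called (edgeR), with an unadjusted p under 0.05 for 4, 1 and 1 of them, and the largest values were *Egr2* (1.30) and *Egr1* (1.29) in psoas against EDL, *Nr4a1* (-1.33) and *Fos* (-1.17) in soleus against EDL, and *Egr2* (-1.76) and *Nr4a1* (-1.21) in soleus against psoas. Over the 8 chaperone lists together, 97 genes, 3 (3.09%) were called in psoas against EDL, beside 4.93% of all genes, and 0 in each comparison of soleus, beside 0.978% and 0.0762%. At an unadjusted p under 0.05 (edgeR) there were 35 (36.1%), 9 (9.28%) and 8 (8.25%), beside 33.3%, 15.1% and 12.7% of all genes. DESeq2 called 5, 1 and 0 of the 97 and limma 3, 0 and 0. The median log2 fold changes in psoas against EDL, beside 0.02 for all genes, were -0.18 for the HSP70 list, -0.11 for the factors, -0.33 for the HSP90 list, -0.76 for the small heat shock proteins, 0.53 for the BAG3 list, -0.33 for TRiC and prefoldin, -0.04 for the endoplasmic reticulum and -0.45 for mitochondria. In soleus against psoas, beside -0.03 for all genes, they were 0.20, -0.05, 0.23, 0.42, -0.13, 0.22, 0.08 and 0.33 in the same order.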

How the data were processed

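The authors sequenced ribosome-depleted total RNA (Illumina TruSeq Stranded Total RNA, paired reads of 75 bases), ran Trimmomatic 0.32 on libraries whose base quality was low and left the others untrimmed, aligned the reads with TopHat2 2.1.1 to GRCm38.p4 and counted reads per gene with GenomicAlignments. The deposited tables hold whole-number counts for 17924 genes and a normalized signal, which the authors made by dividing the counts by DESeq2 size factors (0.5023 to 2.417 per library). The size factors were computed with libraries that are not used here. Gene symbols and exon lengths come from GENCODE release M21 and promoter sequences from RefSeq.

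Groups and replicate numbers come from the labels. The 17069 genes whose normalized count reached 10 in 3 or more libraries were tested with edgeR 4.0.16 (TMM, quasi-likelihood F test, R 4.3.3), with muscle as the only factor and all 13 libraries in 1 fit. A call needs a log2 fold change beyond 1 in either direction and a p under 0.01 after the adjustment of Benjamini and Hochberg. The study also fitted the sequencing run, which the labels do not name. Each SE is the fold change on the log2 scale over the root of its F statistic. DESeq2 1.42.0, limma 3.58.1 (on log2 of the normalized count plus 1), other scalings, no filter, blocks and leaving out each library were alternatives. Log2 CPM have a prior count of 2. The fits were tested on simulated data for psoas against EDL, and not for soleus.

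The members, lists and tests were chosen with earlier results of these data known. Named genes are the members, the called genes of each list of other chaperones, the pair of genes with the largest absolute log2 fold change in each list and comparison, and the 8 genes nearest *Hspa1a* and *Cryab*. By the total number of mice and the wild-type ages in the paper, the 13 libraries come from fewer than 13 mice. Some muscles therefore share a mouse, and the labels do not say which. The 23 pairs of libraries of 1 muscle all differed by more than sampling noise (smallest chi-square per degree of freedom 53.1). The deviations of same-numbered EDL and psoas libraries from their muscle means correlated at 0.289 to 0.407 in 5 of 5 numbers. The ages of replicate 1 differ (38 and 29 days), so not every number is 1 mouse. Every soleus library differs in age from the EDL and psoas libraries of its number, so there the number joins different mice. Deviations of soleus libraries correlated at -0.302 to 0.421 with those of the other muscles. The tests reported here pair no libraries, so the muscles that share a mouse enter them as independent. The replicate number entered only as a block over all 13 libraries in an alternative. The shallowest library held 9114176 counts, which limits the precision of genes with few reads.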

Additional observations from a re-analysis of the deposited data

Results flagged for a closer look

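In EDL replicate 1, 5 normalized counts lay far above the other 4 EDL libraries: those of *Hspa1a* (25692), *Hspa1b* (30946), *Dnajb1* (1704), *Hsph1* (3774) and *Hsp90aa1* (13714). The gap to the nearest EDL library made up 0.979, 0.983, 0.947, 0.914 and 0.903 of the whole range of the 5 libraries, and for *Hspa8* in the same library 0.480. This library was known to be high when the genes were chosen, and *Hspa1a* and *Hspa1b* share reads, so these values restate that choice as a description and are no test of it.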

How the results depend on the processing

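No member gene was called in any comparison under any alternative with a test, except *Hspa1a* in soleus against psoas with only those muscles in the fit (1 member, log2 fold change 1.96, edgeR adjusted p = 0.00520). Counts over all genes depended on the tool. For psoas against EDL, soleus against EDL and soleus against psoas they were 841, 167 and 13 with edgeR and 1586, 633 and 171 with DESeq2. limma called 20 in soleus against psoas. Library totals as the only scaling gave 2282 for psoas and 305 for soleus, both against EDL, the label code as a block 86 in soleus against EDL and 6 in soleus against psoas, and the compared muscles alone 557 for psoas against EDL and 8 between soleus and psoas. The share called higher was 92.9% and 77.7% with library totals, against 49.3% and 54.5%, and that scaling moved the median of all genes by 0.52, 0.36 and -0.15. It was 42.7% and 55.6% in the comparisons of soleus with DESeq2, against 54.5% and 92.3%, 36.0% in soleus against EDL with the label code, and in soleus against psoas 66.7% with the label code, 75.0% with limma and 100% with the compared muscles alone. Of the 97 other chaperone genes, 3 were called in psoas against EDL (5 with DESeq2, 13 with library totals, 2 to 4 with 1 library left out), 0 in soleus against EDL (1 with DESeq2, 1 with library totals, 0 to 1 with 1 library left out) and 0 in soleus against psoas. Leaving out 1 library gave 317 to 802 genes in psoas against EDL (317 and 426 without EDL replicates 3 and 5, 447 and 365 without psoas replicates 1 and 2), 19 to 182 in soleus against EDL (19, 23 and 55 without soleus replicates 1 to 3, and 97, 75, 57 and 86 without EDL replicates 1, 2, 3 and 5) and 3 to 21 in soleus against psoas (3, 3 and 5 without soleus replicates 1 to 3, 5 to 7 with 1 of the psoas libraries left out, and 8, 6 and 21 without EDL replicates 1, 3 and 5).

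The label codes T1 and T3 hold 1 library each, so the block on the code takes EDL replicate 1 and psoas replicate 1 out of the comparisons by construction. With it, psoas against EDL became 0.047 for *Hspa1b*, 0.24 for *Dnajb1*, 0.48 for *Hsph1* and 0.41 for *Hsp90aa1*, soleus against EDL 1.59 for *Hspa1a*, 1.81 for *Hspa1b*, 0.41 for *Dnajb1*, 0.07 for *Hsph1* and 0.54 for *Hsp90aa1*, and soleus against psoas -0.41 for *Hsph1*, -0.10 for *Hspb1* and -0.075 for *Bag3*. With library totals, *Hsp90aa1* and *Hspb1* became 0.17 and 0.21 in psoas against EDL, *Hspa8*, *Hsp90aa1* and *Hspb1* 0.26, 0.33 and 0.16 in soleus against EDL, and *Hsph1*, *Hspb1* and *Bag3* -0.14, -0.051 and -0.069 in soleus against psoas. With limma, soleus against EDL was 0.72 for *Hspa1a*, 0.88 for *Hspa1b* and 0.28 for *Hsp90aa1*, and soleus against psoas -0.025 for *Hsph1*. The replicate block gave 0.26 for *Hspa1a* and 0.50 for *Hspa1b* in soleus against EDL, and -0.061 for *Dnajb1*, -0.28 for *Hsph1*, -0.10 for *Hspb1*, -0.032 for *Hspb7* and -0.14 for *Bag3* in soleus against psoas. It changed no call of a member, and gave 1192, 126 and 11 genes called in all. By the ages, this block joins each soleus library to EDL and psoas libraries of other mice, so for soleus it is no pairing by animal. The summed pair without EDL replicate 1 was at 1.85 in soleus against EDL. The causes of the other reversals were not tested.

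With 1 library left out, psoas against EDL ran from -4.52 to 0.072 for *Hspa1b*, -1.51 to 0.17 for *Dnajb1*, -0.84 to 0.31 for *Hsph1* and -0.53 to 0.40 for *Hsp90aa1*, and soleus against EDL from -2.42 to 1.73 for *Hspa1a*, -2.63 to 1.96 for *Hspa1b*, -0.30 to 0.12 for *Hspa8*, -1.24 to 0.44 for *Dnajb1*, -1.03 to 0.32 for *Hsph1* and -0.21 to 0.73 for *Hsp90aa1*. In each of these the upper end is the value without EDL replicate 1, and *Hspa8* (0.08) and *Hsp90aa1* (0.13) also turned without soleus replicate 3. Soleus against psoas ran from -0.39 to 0.22 for *Hsph1*, -0.068 to 0.36 for *Hspb7* and -0.13 to 0.28 for *Bag3*, lowest without soleus replicate 2, and from 1.87 to 2.06 for *Hspa1a* and 1.77 to 2.02 for *Hspa1b*. The lowest normalized count of a member was 127 (*Hspa1b* in EDL replicate 3), and the number of soleus libraries, 3, limits the precision of every comparison with soleus.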
